A study of Mus musculus with 4 samples.

Results

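The proteasome is the large protease that degrades proteins tagged with ubiquitin. Its core is a barrel of alpha rings, which gate the entrance, and beta rings, which hold the proteolytic sites. A regulatory particle caps the barrel. Its base unfolds substrates with a ring of ATPases, and its lid removes their ubiquitin chains. In the early embryo, degradation through this pathway clears maternal proteins as the embryonic genome takes over. The 32 genes described here encode subunits of the core and the regulatory particle. They were chosen by name from the 30049 genes of the deposited table, by a rule that uses no measured value but was set with earlier results of these data known, and all 32 were found. The alpha ring and the beta ring have 7 genes each, the base has 6 ATPases and 4 non-ATPase subunits or ubiquitin receptors, and the lid has 8.

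RNA was measured in wild-type embryos of the F2 generation from BDF1 parents (C57BL/6 and DBA/2 hybrids, aged 8 to 12 weeks in the study's methods). Zygotes recovered 18 h after human chorionic gonadotropin (18 to 20 h in the methods) were kept for 24 h in KSOM, a culture medium for preimplantation embryos, alone or with 2% dimethyl sulfoxide (DMSO), a common solvent. Those at the 2-cell stage, 50 for each group, were used to make 2 control libraries and 2 DMSO libraries. The sources used here do not say whether each library held 50 embryos or a part of them, nor whether the libraries of a group came from separate cultures, so p-values measure the spread between these libraries, which may be technical. The authors deposited TPM, a unit that corrects reads for the length of the transcript and for the size of the library. The values keep no depth, so no counting error is given, and a level is a share of the library. Fewer cells and less RNA per cell cannot be told apart in such shares. The table summed to 768174 TPM in control replicate 1, 780527 TPM in control replicate 2, 772487 TPM in DMSO replicate 1 and 799166 TPM in DMSO replicate 2, and pairs of values below follow this order.

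The labelled stage was checked against marker genes. Of 10 markers of the 2-cell embryo 9 had a mean of at least 1 TPM and none was at 0 in every library. In 7 of the 10 both DMSO libraries lay above both control libraries and in 1 both lay below, as in 31.1% and 38.7% of all genes tested below. The summed level was 1152 and 836 TPM in control and 3707 and 2504 TPM with DMSO. The most abundant of the 10, Gm5662, had levels of 225 and 150 TPM in control embryos against 1275 and 783 TPM after DMSO. Of 11 oocyte and zygote markers 10 reached a mean of 1 TPM, with sums of 12751, 16061, 13701 and 17434 TPM in the same library order, most of it Dppa3. Without Dppa3 they summed to 1113 and 715 TPM in control and 2873 and 2217 TPM with DMSO. Of the 11, 7 were higher in both DMSO libraries than in both control libraries and 1 was lower in both, beside the same 31.1% and 38.7% of all genes. The 8 markers of later preimplantation stages summed to 116 and 100 TPM in control and 62.2 and 71.1 TPM with DMSO, led by Tfap2c. Without Tfap2c they summed to 39.6 and 20.7 TPM in control and 40.8 and 39.0 TPM with DMSO. Of the 8, 2 were higher and 3 lower without overlap between the groups, beside the same 31.1% and 38.7% of all genes. Of 11 cumulus and granulosa cell markers only 2 reached a mean of 1 TPM, with sums from 9.77 to 17.3 TPM over the 4 libraries, and Amh and Inhba were listed at 0. The 6 sperm markers summed to 2.84, 3.38, 13.5 and 8.57 TPM, led by Prm2, with Tnp2 and Smcp at 0. The 5 blood markers summed to between 1.68 and 13.9 TPM, with Hbb-bt at 0. The 5 oviduct markers summed to 125 and 116 TPM in control and 67.5 and 95.5 TPM with DMSO, mostly Epcam, and without Epcam to 21.1 and 23.8 TPM in control and 31.4 and 39.7 TPM with DMSO. Mitochondrially encoded RNA also differed between the groups, at 82955 and 96781 TPM in control and 118298 and 173391 TPM with DMSO. The part of these differences in the results below was not tested, apart from the rescaling without mitochondrial genes given with the main count.

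RNA of the proteasome subunits was lower in DMSO-treated embryos. The 32 genes summed to 3842 and 4600 TPM in control and 1675 and 2135 TPM with DMSO, and the groups did not overlap. The mean sum was 4221 ± 535 TPM (SD, n = 2) in control embryos and 1905 ± 325 TPM (SD, n = 2) in DMSO-treated embryos, or 45.1% of control. As a share of the table's total this was 0.500% and 0.589% in control against 0.217% and 0.267% with DMSO. Of the 32 genes 30 had a negative log2 fold change, against 53.2% of all genes tested, and 2 beta subunits, Psmb3 and Psmb6, had a positive one. The median log2 fold change was -1.20, and that of the 12038 genes tested, those averaging 1 TPM or more over the 4 libraries, was -0.09. Fold changes were taken on log2(TPM + 1), so those of genes at low levels are understated.

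Each gene was tested with limma on log2(TPM + 1), with p-values adjusted by the Benjamini-Hochberg method over the 12038 genes, and genes with an adjusted p under 0.05 are described as called. Of the 32 subunits 16 were called, where 20.5% of all genes tested were called in either direction. All 16 were lower, against 14.1% of all genes tested. None was called higher by limma, against 6.42% of all genes, and 1 subunit was higher at an unadjusted p under 0.05, against 15.8% of all genes. Of all calls across the transcriptome 31.3% were higher, which became 42.9% with median-ratio scaling and 49.0% with quantile normalization. The 16 called subunits had log2 fold changes from -2.61 to -0.95 and were at 14.9% to 51.1% of their control means, with adjusted p-values from 0.0181 to 0.0477. In 29 of the 32 genes both DMSO libraries lay below both control libraries, and 38.7% of all genes tested did so. The count of calls depended on which libraries entered and on the filter on low values. Without control replicate 1, control replicate 2 or DMSO replicate 1 no subunit and no gene of the transcriptome was called by limma, with 1 residual degree of freedom and with the lone library assumed to vary like the other group, although 23, 14 and 18 subunits had an unadjusted p under 0.05, as did 31.1%, 21.6% and 25.6% of all genes in those fits. Without DMSO replicate 2, 16 were called lower, 13 of them among the 16 above, and 1 was called higher, where 10.6% of all genes were called lower and 5.04% higher. The median log2 fold change of the subunits lay between -1.45 and -0.98 over these 4 fits. Without a filter on low values 0 of the 32 were called by limma, the lowest adjusted p being 0.102, with 20 at an unadjusted p under 0.05, as were 24.1% of all genes in that fit. With quantile normalization 10 were called lower, as were 9.31% of all genes. With TPM rescaled without the mitochondrial genes, an alternative chosen after seeing the data, 13 were called lower, as were 10.25% of all genes, and the median was -1.08, with 0.0058 over all genes.

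**Figure D1:**
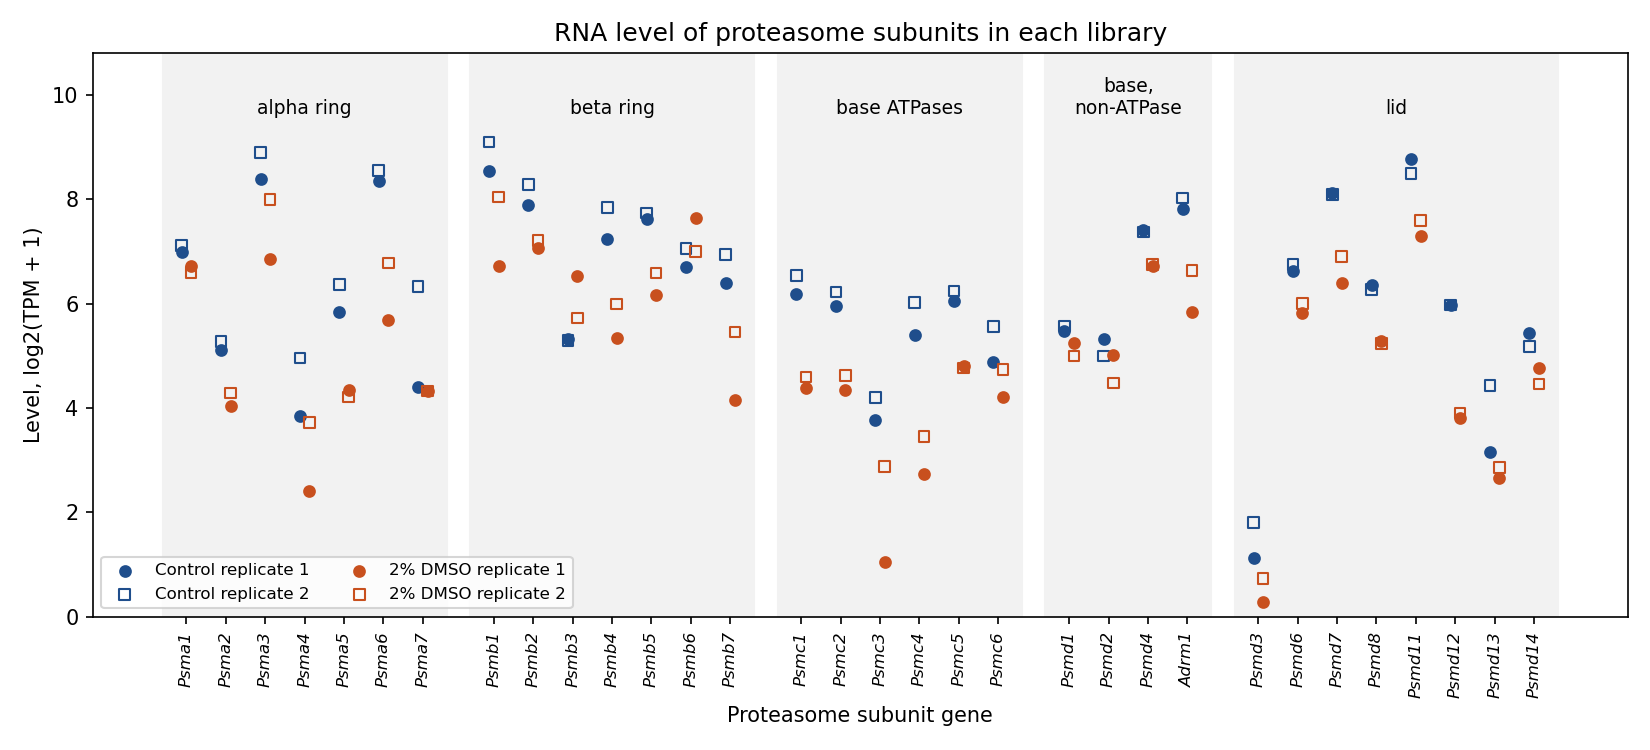
RNA level of the 32 proteasome subunit genes as log2(TPM + 1) in each of the 4 libraries, grouped by sub-complex, with control libraries in blue and 2% DMSO libraries in orange. In 29 genes both orange symbols lie below both blue symbols, and Psmb3 is the gene in which both lie above.

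Levels differed widely among the subunits in control embryos. Psmb1, Psma3 and Psmd11 had the highest means, 459 ± 124, 403 ± 100 and 397 ± 54.8 TPM (SD, n = 2), which differed by less than their spread. The lowest mean was that of Psmd3, a scaffold subunit of the lid, at 1.82 ± 0.927 TPM (SD, n = 2). It was followed upwards by Psmd13 at 14.2 ± 8.94 TPM and Psmc3 at 14.98 ± 3.36 TPM (SD, n = 2), which did not differ beyond their spread. TPM is a level per transcript length, which lets values of different genes be set side by side. Amplification of the RNA and the division of reads shared with other genes may still shift them, which was not tested. The listed levels of subunits that enter the particle together were unequal. The replicates also differed in level. Control replicate 2 exceeded control replicate 1 in 25 of the 32 genes, and DMSO replicate 2 exceeded DMSO replicate 1 in 22. These were 78.1% and 68.8% of the subunits, against 38.0% and 45.9% of all genes tested.

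The start regions are shown because 16 genes of the family were called in the same direction. Windows from 250 bases before to 50 bases after the transcription start (RefSeq, GRCm38.p6) were given for 26 of the 32 genes, 28 windows in all since 2 genes had more than 1. Motifs were searched on both strands. The core CCGGAA, bound by ETS-family transcription factors, was in 57.1% of these windows, in 27.5% of the windows of genes tested here and in 14.9% of all 32851 windows. By gene, it was in 10 of the 13 called subunits with a window and in 5 of the 13 not called. The GC box GGGCGG was in 57.1% of the subunit windows and in 59.4% of those of genes tested, and the NF-Y box CCAAT in 39.3% and 39.0%. The core of the antioxidant response element, TGACNNNGC, through which Nfe2l1 and Nfe2l2 act on proteasome genes, was in 5 windows (17.9%, with 14.0% in genes tested and 12.4% in all windows), those of Adrm1, Psmb5, Psmb6, Psmc6 and Psmd12. TATAAA was in 10.7% and 7.75%, the E-box CACGTG in 3.57% and 9.53%, and the palindrome of nuclear respiratory factor 1 in 3.57% and 2.02% of the windows of the subunits and of genes tested. These are matches of letters in windows, with no test and no measure of binding.

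The stretches before the start of 5 genes are printed, with the ETS core, the NF-Y box and the GC box in capitals, on either strand. Each stretch ends before the more upstream of the RefSeq and GENCODE starts. The last base printed for Psmb3 lies 36 bases before its RefSeq start. Psmc4 had the lowest fold change of all subunits and no CCGGAA. Psma5 and Psmc5 were called lower and had it, and Psmd2 had it on each strand and was not called. Psmb3 had 2 CCAAT boxes, 43 and 85 bases before the RefSeq start, and was higher in both DMSO libraries.
Psmc4, chr7:28050102-28050261, minus strand: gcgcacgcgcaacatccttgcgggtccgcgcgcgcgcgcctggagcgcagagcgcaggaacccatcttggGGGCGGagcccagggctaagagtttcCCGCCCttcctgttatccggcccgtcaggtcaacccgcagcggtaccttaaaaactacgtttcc
Psma5, chr3:108256766-108256925, plus strand: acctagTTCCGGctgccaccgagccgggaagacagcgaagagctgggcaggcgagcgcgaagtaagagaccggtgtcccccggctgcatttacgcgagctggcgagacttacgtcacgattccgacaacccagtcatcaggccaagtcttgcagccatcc
Psmc5, chr11:106255994-106256153, plus strand: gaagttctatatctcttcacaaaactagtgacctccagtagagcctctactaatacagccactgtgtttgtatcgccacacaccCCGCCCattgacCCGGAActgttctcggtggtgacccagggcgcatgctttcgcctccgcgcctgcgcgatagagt
Psmd2, chr16:20651492-20651651, plus strand: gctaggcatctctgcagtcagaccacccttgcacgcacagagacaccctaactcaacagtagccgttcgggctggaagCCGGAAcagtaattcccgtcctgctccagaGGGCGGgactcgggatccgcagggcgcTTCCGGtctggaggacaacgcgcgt
Psmb3, chr11:97703239-97703398, plus strand: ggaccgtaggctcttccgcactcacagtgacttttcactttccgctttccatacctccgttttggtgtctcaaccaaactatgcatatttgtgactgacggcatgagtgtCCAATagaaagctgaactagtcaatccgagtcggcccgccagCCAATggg

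All 7 genes of the alpha ring, whose subunits form the outer rings of the core and its gate, were lower in both DMSO libraries than in both control libraries. Of all genes tested 38.7% did so, and 14.1% were called lower. The median log2 fold change of the 7 was -1.21, and 3 were called. The median was -1.89 without control replicate 1, -1.77 without DMSO replicate 2, -0.95 without control replicate 2 and -0.91 without DMSO replicate 1. Psma6 (chromosome 12 of GRCm38 from 55384222 to 55418454) stood at 326 and 373 TPM without DMSO and 50.4 and 109 TPM with it. It ranked 4 in level among the 32 subunits in control embryos and 10 in DMSO-treated embryos, and its log2 fold change was -2.22 (standard error, SE, of 0.39, adjusted p = 0.0219 by limma). Psma5 (chromosome 3 from 108256926 to 108279974) fell from 56.0 and 81.6 TPM to 19.2 and 17.5 TPM, which is -1.83 on the log2 scale (SE 0.30, adjusted p = 0.0208). Of the 31-base words in its transcripts 58.4% also occur in other genes, all of them in the processed pseudogenes Gm8394 and Gm12989, which were listed at no more than 0.382 TPM in any library. Psma2 read 33.6 and 37.8 TPM in control and 15.4 and 18.5 TPM with DMSO. Its log2 fold change of -1.03 had an adjusted p of 0.0450, and this call was lost with a pseudocount of 0.1, without a filter, without a variance trend, with each rescaling of the libraries and without any 1 of the 4 libraries. Psma1 had the smallest fold change of the 32 genes, -0.39 (SE 0.24, adjusted p = 0.265), with 125 and 137 TPM in the control libraries and 104 and 96.0 TPM in the DMSO libraries.

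The other 3 alpha genes had log2 fold changes from -1.34 to -1.03 that did not pass the test (adjusted p from 0.0797 to 0.229). When single libraries were left out, Psma3 lay between -1.78 and -0.64 and Psma4 between -1.99 and -0.68. Psma7, named here after its values were seen, read 20.02 and 79.1 TPM in control and 19.1 and 18.98 TPM with DMSO, so that its fold change of -1.03 was -0.07 without control replicate 2. Psma3 shares sequence with the processed pseudogene Gm13835, all of whose 31-base words occur in Psma3 transcripts and which was itself at 68.8 and 111 TPM in control and 15.8 and 11.05 TPM with DMSO. How the quantification divided reads between them cannot be told from the table. With Gm13835 summed into it, Psma3 had a log2 fold change of -1.37 and was again not called (adjusted p = 0.0520 by limma). In that fit 16 subunits were again called lower, though most subunits had no such gene to sum in.

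The beta ring was divided. Of its 7 genes 5 were lower without overlap between the groups, and 4 of these were called, while Psmb3 and Psmb6 were not lower. Of all genes tested 38.7% were lower without overlap and 14.1% were called lower. Psmb4 (chromosome 3 from 94884093 to 94886961), a structural subunit, fell from 150 and 228 TPM to 39.4 and 62.6 TPM, and the log2 change was -1.87 (SE 0.34, adjusted p = 0.0228 by limma). Psmb2, another structural subunit, went from 236 and 310 TPM to 132 and 147 TPM. Its log2 fold change of -0.95 (adjusted p = 0.0477) was the smallest among the called subunits, and its call was lost under the same settings as that of Psma2. Psmb3 (chromosome 11 from 97703399 to 97713500), also structural, had levels of 39.1 and 38.2 TPM in control embryos against 91.4 and 51.9 TPM after DMSO. It was the only subunit with both DMSO libraries above both control libraries, as were 31.1% of all genes tested. Its log2 fold change of 0.82 (SE 0.33, adjusted p = 0.119) did not pass the test. It lay between 0.42 and 1.22 when single libraries were left out, and passed without DMSO replicate 2 (adjusted p = 0.0497 by limma). It was positive with each scaling of the libraries. Of the 31-base words of Psmb3, 17.95% also occur in other genes. None of these genes shared enough words to be summed into Psmb3, so the effect of the shared sequence was not tested.

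Of the 3 catalytic subunits, all in the beta ring, Psmb5 and Psmb7 were called lower and Psmb6 was not called. Psmb5, which carries the chymotrypsin-like site, stood at 196 and 211 TPM without DMSO and 70.7 and 95.0 TPM with it, which is -1.30 on the log2 scale (SE 0.27, adjusted p = 0.0272 by limma). Psmb7, which carries the trypsin-like site, fell from 83.6 and 122 TPM to 16.7 and 42.8 TPM, and the log2 change was -1.87 (SE 0.46, adjusted p = 0.0382). The change of Psmb7 was -1.22 without DMSO replicate 1 and -2.52 without DMSO replicate 2. Its call was lost without a filter and with median-ratio scaling, quantile normalization and the rescaling without mitochondrial genes. Psmb6, which carries the caspase-like site, read 103 and 132 TPM in control and 197 and 126 TPM with DMSO. Its groups overlapped, with a log2 fold change of 0.43 (SE 0.31, adjusted p = 0.325). This change lay between 0.11 and 0.75 when single libraries were left out. Psmb6 ranked 12 in level among the 32 subunits in control embryos and 4 in DMSO-treated embryos. The ratio of Psmb6 to Psmb7 in TPM was 1.23 and 1.08 in control against 11.8 and 2.95 with DMSO. The ratio of Psmb6 to Psmb5 was 0.527 and 0.625 in control against 2.79 and 1.33 with DMSO. Both ratios were higher in both DMSO libraries. The ratio of Psmb7 to Psmb5, at 0.4275 and 0.576 in control against 0.237 and 0.451 with DMSO, overlapped between the groups. No test was made of these ratios or of the difference between the subunits.

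**Figure D2:**
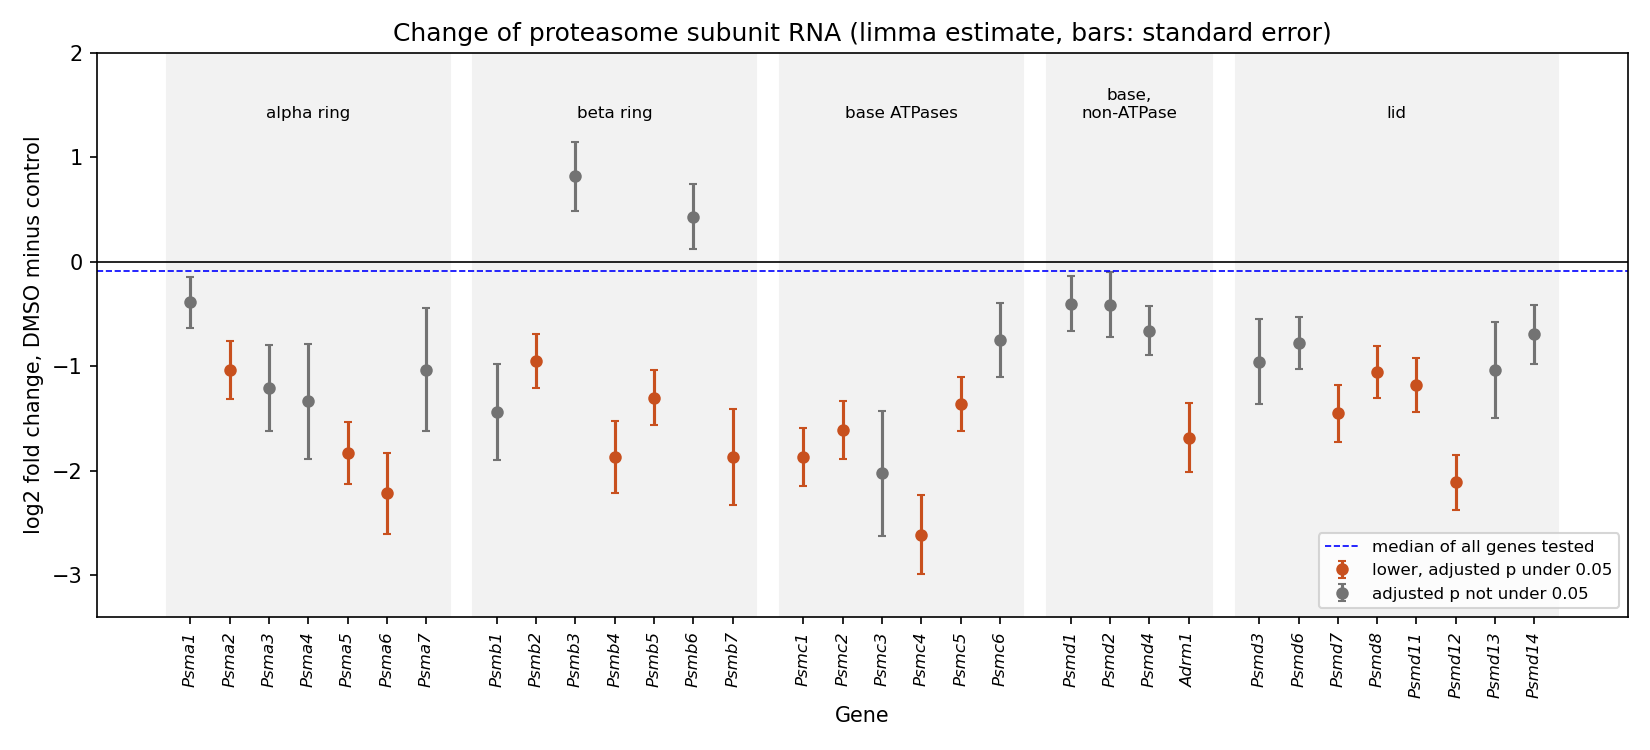
log2 fold change (DMSO minus control, on log2(TPM + 1)) of the 32 subunit genes by sub-complex, with limma standard errors as bars, called genes in orange and the median of all genes tested, -0.09, as a dashed line. The points of 30 genes lie below 0, and those of Psmb3 (0.82) and Psmb6 (0.43) lie above it.

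The 6 ATPases of the base, which form the ring that unfolds substrates and opens the gate of the core, had the lowest median of the sub-complexes, -1.74. All 6 were lower without overlap between the groups and 4 were called lower (38.7% and 14.1% of all genes tested). Their sum was 280 and 367 TPM in control and 90.01 and 115 TPM with DMSO, or 31.6% of the control mean. Psmc4 (chromosome 7 from 28041707 to 28050101) had levels of 41.3 and 64.1 TPM in control embryos against 5.68 and 9.98 TPM after DMSO. Its log2 fold change, -2.61 (SE 0.37, adjusted p = 0.0181 by limma), was the lowest of the 32, and it lay between -2.97 and -2.26 when single libraries were left out. Psmc1 (chromosome 12 from 100110154 to 100123405) fell from 71.4 and 91.6 TPM to 19.9 and 23.2 TPM, with a log2 fold change of -1.87 (adjusted p = 0.0181). Psmc2 fell from 60.7 and 73.5 TPM to 19.2 and 23.5 TPM, with a log2 fold change of -1.61 (adjusted p = 0.0216). Psmc5 fell from 65.5 and 74.5 TPM to 26.8 and 26.2 TPM, with a log2 fold change of -1.37 (adjusted p = 0.0239).

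The 4 other genes of the base had the smallest median change, -0.54. Adrm1 (chromosome 2 from 180171485 to 180176286), a ubiquitin receptor, was the called member. It fell from 223 and 259 TPM to 55.8 and 98.0 TPM, which is -1.69 on the log2 scale (SE 0.33, adjusted p = 0.0250 by limma). Of its 31-base words 27.4% also occur in the gene Gm9774, which was listed at no more than 0.407 TPM. Psmd1, a scaffold of the base, stood at 43.2 and 46.4 TPM without DMSO and 36.7 and 30.8 TPM with it, and the log2 change was -0.40 (SE 0.27, adjusted p = 0.287). Psmd2, the other scaffold, was the lower gene with overlapping groups (log2 fold change -0.41, adjusted p = 0.349 by limma). Its change lay between -0.68 and -0.15 when single libraries were left out. Of the 31-base words of Psmd2, 29.3% also occur in another gene. Psmd4, the other ubiquitin receptor, was lower without overlap (-0.66, adjusted p = 0.0899). Adrm1 and Psmd4 are both receptors, and whether their changes differ was not tested.

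The lid frames the deubiquitinase Psmd14 with scaffold subunits. All 8 lid genes were lower without overlap between the groups, as were 38.7% of all genes tested. The median log2 fold change of the lid was -1.05, and 4 of its genes were called lower (14.1% of all genes tested). Psmd12 (chromosome 11 from 107479484 to 107504362) read 61.6 and 61.7 TPM in control and 13.0 and 13.9 TPM with DMSO. Replicates of this gene were close to each other, and its log2 fold change of -2.11 (SE 0.26, adjusted p = 0.0181 by limma) stayed between -2.16 and -2.07 when single libraries were left out. Psmd7 (chromosome 8 from 107580381 to 107588464), the partner of the deubiquitinase, fell from 275 and 271 TPM to 82.9 and 119 TPM, which is -1.45 on the log2 scale (adjusted p = 0.0239). Psmd11 (chromosome 11 from 80428615 to 80473248) fell from 436 and 358 TPM to 157 and 192 TPM, and the log2 change was -1.18 (adjusted p = 0.0302). Psmd8 fell from 81.4 and 75.9 TPM to 37.9 and 36.5 TPM, which is -1.06 on the log2 scale (adjusted p = 0.0349), and its call was also lost without a variance trend, with quantile normalization and without DMSO replicate 2. The calls of Psmd11 and Psmb5 were lost with quantile normalization (adjusted p = 0.0517 and 0.0505 by limma). Psmd14 itself was lower without overlap but did not pass the test (log2 fold change -0.69, adjusted p = 0.117).

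The 12 subunits described by their range had log2 fold changes from -2.02 to -0.41 and adjusted p-values from 0.0559 to 0.349. In 11 of the 12 both DMSO libraries lay below both control libraries, as in 38.7% of all genes tested. They span the range of abundance, from Psmd3, at 1.17 TPM in control replicate 1, to Psmb1, at 546 TPM in control replicate 2. Psmc3, an ATPase of the base, had the lowest fold change among them and the lowest of their adjusted p-values. Its log2 fold change was -1.11 without DMSO replicate 1, and -2.94 without DMSO replicate 2, where it passed the test (adjusted p = 0.0299 by limma). By summed level, DMSO-treated embryos held 40.3% of the control mean for the alpha ring, 52.0% for the beta ring, 31.6% for the ATPases, 49.7% for the rest of the base and 42.9% for the lid. The core as a whole was at 46.9% and the regulatory particle at 42.7%. In each of the 5 sub-complexes both DMSO sums lay below both control sums. Whether the sub-complexes differ from each other was not tested, since their genes are not replicates.

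**Figure D3:**
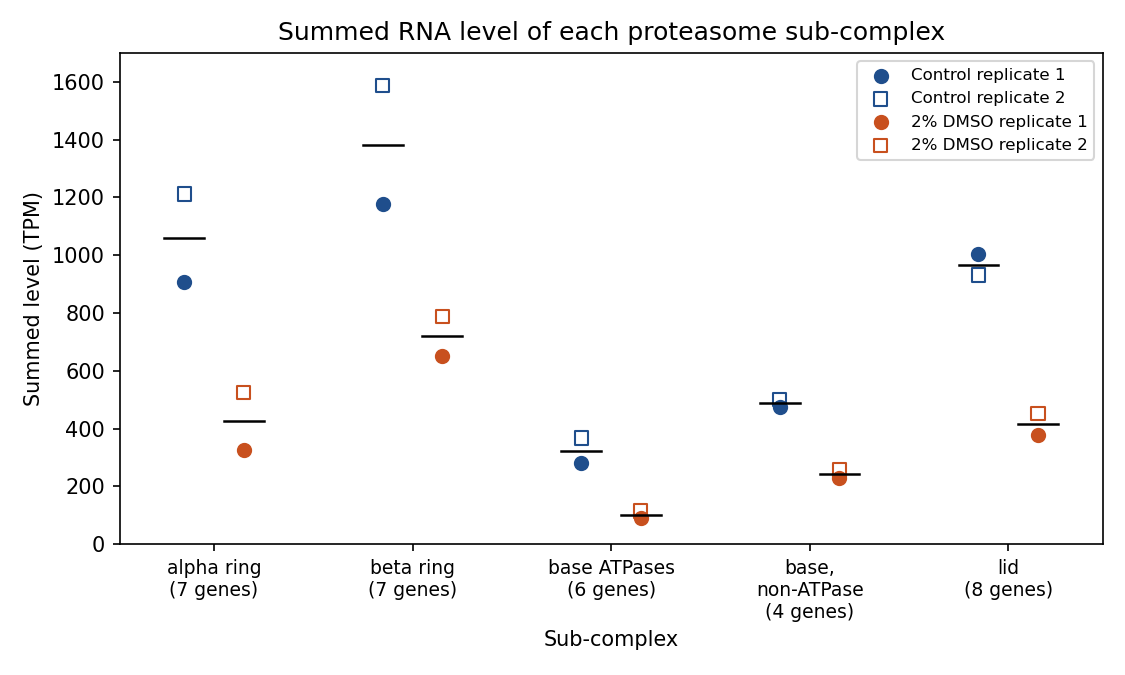
Summed level in TPM of the genes of each sub-complex, with 1 symbol per library (control in blue, 2% DMSO in orange) and the group mean as a black line. Both DMSO libraries lie below both control libraries in all 5 sub-complexes, from 31.6% of the control mean in the ATPases to 52.0% in the beta ring.

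Genes that act with the proteasome were listed by role. Of 44 such genes 37 had a mean of at least 1 TPM, and limma called 9 of them lower and 1 higher (14.1% and 6.42% of all genes tested). Their median log2 fold change was -0.60. Without control replicate 1, control replicate 2 or DMSO replicate 1 none was called, and without DMSO replicate 2 there were 9 lower and 3 higher. Among subunits outside the 32, Sem1 of the lid had levels of 122 and 167 TPM in control embryos against 70.8 and 80.6 TPM after DMSO (log2 fold change -0.91, adjusted p = 0.0587). The immunoproteasome subunits Psmb8, Psmb9 and Psmb10, the thymus form Psmb11 and the testis form Psma8 were near the floor of the table, and only Psmb10, at 1.89 and 3.47 TPM against 0.346 and 1.21 TPM, reached a mean of 1 TPM (log2 fold change -1.06, adjusted p = 0.111).

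Of the 5 activators and inhibitors 2 were called lower, against 14.1% of all genes tested. Psme3, the nuclear activator, fell from 92.3 and 76.1 TPM to 1.62 and 2.56 TPM and had the lowest log2 fold change of the wider list, -4.80 (limma adjusted p = 0.00647). Psme1, a subunit of the activator that pairs with Psme2, fell from 22.1 and 30.9 TPM to 1.83 and 2.60 TPM (log2 fold change -3.09, adjusted p = 0.0181). Psme2 stood at 49.9 and 36.3 TPM without DMSO and 16.6 and 26.5 TPM with it (log2 fold change -0.99, adjusted p = 0.0801). Psme4, an activator used in histone degradation, was at 67.3 and 62.1 TPM against 67.3 and 71.2 TPM (0.10, adjusted p = 0.786). Psmf1, an inhibitor of the core named here after its values were seen, read 14.4 and 8.19 TPM in control and 43.4 and 23.3 TPM with DMSO (1.46, adjusted p = 0.0514). Among the 8 assembly chaperones, 3 of the 6 tested were called lower and 1 higher (14.1% and 6.42% of all genes tested). Pomp, which guides the beta ring, fell from 61.7 and 89.8 TPM to 25.4 and 26.2 TPM (log2 fold change -1.49, adjusted p = 0.0250). Psmg3 and Psmg2, which guide the alpha ring, had log2 fold changes of -2.59 and -1.33 (adjusted p = 0.0327 and 0.0349). Psmd9, a chaperone of the base ATPases, rose from 15.7 and 11.7 TPM to 46.0 and 32.7 TPM (1.45, adjusted p = 0.0300). Psmd5, another chaperone of that ring, was at 105 and 84.5 TPM against 78.3 and 89.7 TPM (-0.17, adjusted p = 0.650), and Psmg4 had a log2 fold change of 0.11 (adjusted p = 0.825).

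Of 7 genes of the p97 unfoldase, which extracts ubiquitin-tagged proteins from complexes, and its cofactors all 7 had negative log2 fold changes. Of these 3 were called lower. Over all genes tested 53.2% had a negative log2 fold change and 14.1% were called lower. Vcp, the unfoldase, fell from 85.3 and 86.0 TPM to 35.0 and 42.3 TPM (log2 fold change -1.13, limma adjusted p = 0.0325), and 46.3% of its 31-base words also occur in other genes. Ubxn1 fell from 617 and 602 TPM to 130 and 208 TPM (-1.88, adjusted p = 0.0198), and Faf2 from 21.8 and 21.02 TPM to 7.21 and 6.10 TPM (-1.55, adjusted p = 0.0233). Faf1 and Ufd1 had log2 fold changes of -0.40 and -1.04 that did not pass the test (adjusted p = 0.292 and 0.0759). Of 2 genes listed as ubiquitin precursors, Rps27a, a fusion with a ribosomal protein, was called lower (368 and 640 TPM against 120 and 197 TPM, log2 fold change -1.65, adjusted p = 0.0321). The polyubiquitin gene Ubb, at 2450 and 1686 TPM against 3890 and 2394 TPM, had overlapping groups (0.59, adjusted p = 0.232), and 50.3% of its words are shared with other genes.

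Of 9 deubiquitinases, ligases and shuttle factors bound to the proteasome 0 were called by limma, with 3 lower (33.3%) and 2 higher (22.2%) at an unadjusted p under 0.05, near the 24.3% and 15.8% of all genes tested. Uchl5, the deubiquitinase that binds Adrm1, stood at 163 and 128 TPM without DMSO and 199 and 186 TPM with it (log2 fold change 0.41, adjusted p = 0.263), so receptor and partner had opposite signs. The shuttle factor Rad23b had a log2 fold change of 0.25 (adjusted p = 0.488). Of 6 tested regulators of proteasome gene transcription, 0 were called by limma, with 1 lower at an unadjusted p under 0.05. Nfe2l1, the factor that raises proteasome genes when the protease is inhibited, read 28.1 and 22.0 TPM in control and 23.8 and 24.7 TPM with DMSO (log2 fold change -0.04, SE 0.28, adjusted p = 0.932). Nfe2l2 was at 15.8 and 11.2 TPM against 27.8 and 14.96 TPM, with overlapping groups (0.58, adjusted p = 0.284). These values are of RNA, and proteasome protein and activity were not measured.

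**Figure D4:**
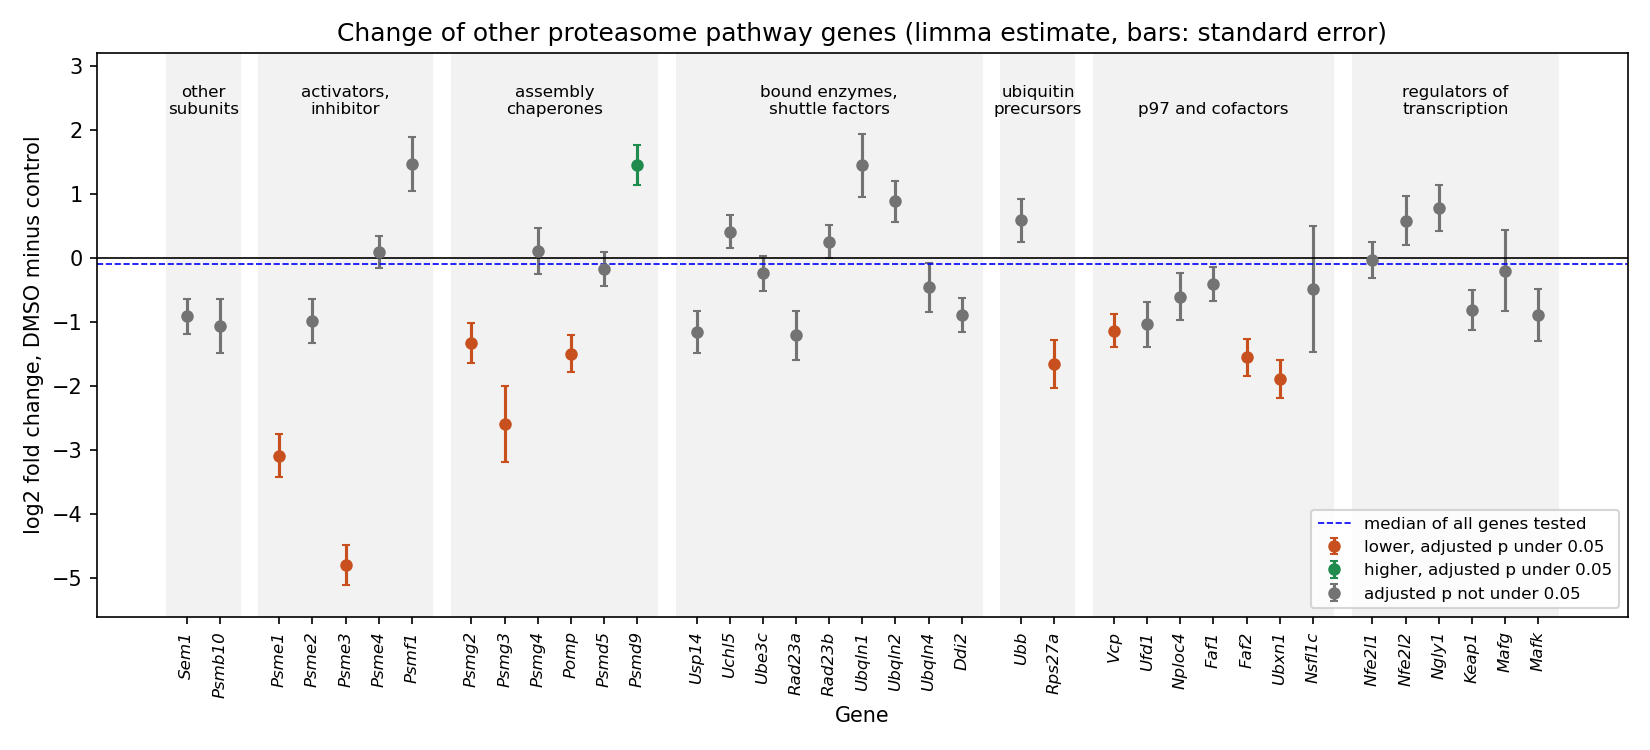
log2 fold change (DMSO minus control, on log2(TPM + 1)) of the 37 tested genes that act with the proteasome, grouped by role, with limma standard errors as bars and called genes in orange (lower) or green (higher). Psme3 lies lowest at -4.80, all 7 genes of the p97 group lie below 0, and Psmd9 is the called gene above 0.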

How the data were processed

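RNA of 2-cell mouse embryos was amplified with a SMARTer low-input kit and sequenced on an Illumina HiSeq. The authors quantified reads with kallisto on Ensembl transcripts of GRCm38 (mm10), summed transcripts per gene with tximport and deposited TPM values for 30049 genes. The kallisto version is not given in the sources used here, and the labels also list STAR, SAMtools and bedtools. The study tested estimated counts, and such a test cannot be run on TPM.

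Groups and replicate numbers were taken from the sample titles, and the columns named "treated" were matched to the DMSO titles. Names and coordinates came from GENCODE M21 (GRCm38), which held 29668 of the gene identifiers and all 32 subunits. Genes averaging 1 TPM or more entered a test with limma 3.58.1 in R 4.3.3 (log2(TPM + 1), lmFit, eBayes with trend, Benjamini-Hochberg adjustment at 0.05, no replicate block). The step was tested on simulated data. Shared sequence was the percent of 31-base words of a gene found in GENCODE transcripts of other genes of the table, on either strand, which also covers antisense overlap. A gene sharing at least 50% of its words with a subunit was summed into it in an alternative. The other steps used Python 3.11.15, pandas 2.3.3 and matplotlib 3.10.9.

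The subunits and lists were chosen with earlier results of these data known. Values by library are given for subunits called, the 2 with the smallest change, those higher in DMSO and the catalytic subunits. In the other lists every called gene and up to 2 others (the highest means) are named. Some items of these lists are not reported here.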

Additional observations from a re-analysis of the deposited data

How the results depend on the processing

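The 30 negative and 2 positive log2 fold changes of the subunits kept their sign in every alternative run, with Psmd3 left untested at a mean of at least 5 TPM. The 16 calls became 0 with no filter on low values, 10 with quantile normalization and 25 with the replicate block. The block also called 1 subunit, Psmb3, higher, as it did 17.9% of all genes. Lower calls numbered 18 at a mean of at least 5 TPM (22.5% of all genes called lower), 14 with a pseudocount of 0.1 (12.03%), 13 without a trend (11.6%), 13 with median-ratio scaling (10.5%) and 16 with sequence-sharing genes summed in (14.1%). Over all genes the share called lower was 0% with no filter, 9.31% with quantile normalization and 24.8% with the block. The median of the subunits was -0.97 with quantile normalization and -1.08 when rescaled without mitochondrial genes. Leaving out each library gave 0 to 16 subunits called lower and 0 to 1 higher, medians from -1.45 to -0.98, 0 to 1883 genes called across the transcriptome, and 0 to 9 lower and 0 to 3 higher among the wider pathway genes. Across the transcriptome 2470 genes were called, 0 with no filter (5368 at an unadjusted p under 0.05) and 5132 with the replicate block. Of the wider genes, 9 lower and 1 higher became 0 and 0 with no filter, 13 and 2 at a mean of at least 5 TPM, and 18 and 5 with the block. With median-ratio scaling, quantile normalization and the rescaling without mitochondrial genes 2 were called higher. Of all genes 10.25% were called higher at a mean of at least 5 TPM and 17.9% with the block. These shares were 7.88% with median-ratio scaling, 8.94% with quantile normalization and 7.92% with the rescaling. The cause of the changes between settings was not tested. As a check of the pairing, libraries of like number were compared after subtracting group means, which gave r = 0.35 over 12038 genes that are not independent, and the labels do not say what a replicate number marks. TPM keeps no depth, so limits from sequencing depth are unknown.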
